A study of Mus musculus with 19 samples.

Results

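The 8 genes described here encode Krüppel-like factors (KLFs): Klf2, Klf3, Klf4, Klf5, Klf6, Klf9, Klf10 and Klf13. They were listed by gene name from the 54352 gene symbols that each of 2 count tables lists. The rule used no measured value, but earlier results of these data were known when it was set. Other KLF genes, such as Klf7 and Klf8, are not among the 8 and are described below in a separate list. KLFs are transcription factors whose zinc fingers, at the end of the protein, bind GC-rich and CACCC-type promoter elements. Klf2, Klf4 and Klf5 help mouse embryonic stem cells to renew themselves, and Klf5 is also needed in the mouse for the outer cell layer of the blastocyst, the trophectoderm. Other members recruit co-repressors, CtBP proteins in the case of Klf3 and Sin3 complexes in the case of Klf9, Klf10 and Klf13.

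The study measured polyadenylated RNA in 19 libraries of TT2 mouse embryonic stem cells (TT2-mESC) and of blastoids, cell aggregates that resemble the blastocyst, grown from them. In 2D culture, 2 libraries came from cells given 20 nM pladienolide B (PlaB), an inhibitor of the SF3B splicing complex, for 6 h. Another 2 libraries came from untreated control cells, and both 2D groups were taken 54 h after seeding. Blastoid libraries came from days 1, 2, 3, 4 and 5 in 3D microwells, 3 for each day, and the labels list the same PlaB treatment for all of them. All libraries derive from 1 cell line, which was grown on inactivated mouse embryonic fibroblasts (feeder cells), and no blastoid library without PlaB was analysed here. Whether the replicates of a group were separate cultures is not stated in the labels. The p-values set group differences against the spread between these samples. That spread may be technical, so the p-values may not extend to new cultures.

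The 2D libraries held between 2515381 and 4118725 counts, and the blastoid libraries between 3684787 and 7607021. Smart-seq2, the method used, amplifies full-length cDNA without molecular identifiers. Day 3 replicate 3 stood apart, with 13.5% mitochondrial counts and a chi-square per degree of freedom of 90.5 and 65.8 against the other day 3 libraries. Embryonic stem cell markers were detected in every group. Pou5f1, a defining marker, was listed at a mean of 15.9 CPM in PlaB cultures and 0.49 CPM in control cultures, values that are uncertain because how the counting treated genes that overlap it was not tested. Trophectoderm markers summed to between 1200 and 2250 CPM (counts scaled to a common library size) on day 5, 1020 to 1110 on day 4, and 104 to 588 over days 1 to 3, and Cdx2, a defining marker, was at 0 on day 2. Feeder markers summed to between 8090 and 10500 CPM in PlaB cultures, 5830 to 6750 CPM in control cultures and 299 to 1310 CPM in blastoids.

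The 8 genes lie on 8 chromosomes (GRCm38 coordinates, GENCODE M21). Klf2 is at chr8:72319033-72321656 on the plus strand and has the highest GC content of the 8, at 61.6% of its longest transcript. Klf3 is at chr5:64803388-64832901 on the plus strand, and its exons overlap the antisense gene Gm20033 by 404 bp. Because the strand setting of the counting is not given in the sources used here, Klf3 counts may include Gm20033 reads. Klf4 is at chr4:55527143-55532466 on the minus strand, with a GC content of 54.6%. Klf5 is at chr14:99298691-99315036 on the plus strand and Klf6 at chr13:5861482-5870394 on the plus strand. Klf6 has the lowest GC content of the 8, at 42.4%. Klf9 is at chr19:23141226-23168134 on the plus strand, Klf10 at chr15:38291463-38300706 on the minus strand and Klf13 at chr7:63886351-63938915 on the minus strand. The longest transcript has 1 intron in Klf9 and Klf13, 2 in Klf2, 3 in Klf5, Klf6 and Klf10, 4 in Klf4 and 5 in Klf3.

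RefSeq promoter windows were found for 6 of the 8 genes, and those of Klf4, Klf6 and Klf2 are shown because these genes had the largest differences of the 8 between days 5 and 4, Klf2 in the opposite direction to the others. Each run is the 250 bases before the RefSeq start (GRCm38.p6), read 5′ to 3′ on the strand of the gene. Capitals mark the GC box GGGCGG and the CACCC box CACCC, read on either strand. The windows are chr4:55532476-55532725 on the minus strand for Klf4, chr13:5861239-5861488 on the plus strand for Klf6 and chr8:72318812-72319061 on the plus strand for Klf2.
Klf4: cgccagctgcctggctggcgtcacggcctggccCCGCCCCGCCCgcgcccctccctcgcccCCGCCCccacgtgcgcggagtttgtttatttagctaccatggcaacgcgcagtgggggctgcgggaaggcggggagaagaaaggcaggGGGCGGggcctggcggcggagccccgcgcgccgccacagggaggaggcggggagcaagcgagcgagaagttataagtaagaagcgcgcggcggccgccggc
Klf6: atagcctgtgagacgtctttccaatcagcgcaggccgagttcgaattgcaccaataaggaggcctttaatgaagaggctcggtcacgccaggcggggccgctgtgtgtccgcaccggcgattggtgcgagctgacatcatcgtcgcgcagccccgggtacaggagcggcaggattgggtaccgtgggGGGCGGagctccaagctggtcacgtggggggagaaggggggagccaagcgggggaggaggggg
Klf2: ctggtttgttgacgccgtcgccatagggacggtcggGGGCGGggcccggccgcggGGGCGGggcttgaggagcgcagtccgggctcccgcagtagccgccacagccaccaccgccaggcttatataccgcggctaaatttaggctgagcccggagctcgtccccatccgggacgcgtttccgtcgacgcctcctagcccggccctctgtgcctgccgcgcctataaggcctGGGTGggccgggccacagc
The Klf4 window held 4 GC boxes, a pair of which overlap, and no CACCC box, the Klf6 window 1 GC box and no CACCC box, and the Klf2 window 2 GC boxes and 1 CACCC box. The windows of Klf3 and Klf13, not shown, held 6 and 3 GC boxes with 5 and 1 CACCC boxes, some of them overlapping, and that of Klf9 held 1 CACCC box and no GC box. Among 32841 promoter windows of the same length, 32.7% held a GC box and 52% a CACCC box. The CCAAT box, CCAAT on either strand, occurred 4 times in the Klf6 window, 3 times in that of Klf9, 2 times in that of Klf13 and in none of the other 3, against 33.9% of all windows. The E-box CACGTG occurred once each in the Klf4 and Klf6 windows, against 6.02% of all windows. Of the other 4 of the 8 motifs searched, all on both strands, the AP-1 site TGANTCA (6.75% of all windows) and the STAT site TTCNNNGAA (7.02%) each occurred once, in the Klf9 window. The CRE TGACGTCA (1.55%) and the TEAD site GGAATG (12.6%) occurred in none of the 6. These matches describe the letters of the windows, and no binding was measured.

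The 2D comparison asked what a short inhibition of splicing did to the stem cell cultures. After PlaB, Klf6 and Klf10 were higher, Klf3 and Klf5 were lower, and Klf2, Klf4, Klf9 and Klf13 did not pass the test. Of all 11183 genes tested, 25.9% were called higher and 25.8% lower, 51.7% in all, so 2 of 8 members in each direction is close to the background share. The median log2 fold change was 0.04 over the members and 0.00142 over all genes. The test was the edgeR quasi-likelihood F-test, with Benjamini-Hochberg adjusted p-values taken across every gene of the fit and a threshold of 0.05. Values per library are given below in CPM scaled by the trimmed mean of M-values (TMM) over all 19 libraries, in the order of the replicates.

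Among the self-renewal factors, Klf5 changed most. It stood at 41.8 and 48.8 CPM in PlaB cultures, against 160 and 135 CPM in control cultures. Both PlaB libraries lay far below both control libraries, and Klf5 changed by -1.70 ± 0.17 on the log2 scale (± SE throughout; adjusted p = 2.91e-10). Klf4, which LIF signalling through STAT3 induces and which is 1 of the classical reprogramming factors, stood at 146 and 143 CPM in PlaB cultures, against 135 and 102 CPM in control cultures. Its PlaB libraries lay just above both controls, and the difference of 0.28 ± 0.16 on the log2 scale did not pass (adjusted p = 0.133). Klf2 stood at 24.1 and 25.6 CPM in PlaB cultures, against 22.6 and 20.7 CPM in control cultures, a difference of 0.20 ± 0.27 that did not pass either (adjusted p = 0.561). For both Klf2 and Klf4 this depended on whether differences in GC content between libraries were removed. Relative to each gene's mean over all libraries, the median log2 level of GC-rich genes (over 54% GC) minus that of GC-poor genes (under 42% GC) was 0.18 in PlaB and -1.1 in control libraries. With each library's GC trend removed, Klf2 was lower by -1.35 ± 0.27 (adjusted p = 4e-05) and Klf4 by -0.56 ± 0.15 (adjusted p = 0.00196), so no direction is given for them here.

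Klf6, a broadly expressed activator, stood at 249 and 313 CPM in PlaB cultures, against 120 and 150 CPM in control cultures. The groups did not overlap, and Klf6 was higher by 1.05 ± 0.15 on the log2 scale (adjusted p = 2.02e-07). Klf3, the CtBP-binding repressor, stood at 34.9 and 39.8 CPM in PlaB cultures, against 115 and 105 CPM in control cultures. Its fall of -1.56 ± 0.18 (adjusted p = 7.33e-09) was close in size to that of Klf5. The ratio of Klf5 to Klf3, in counts per kb of exon, was 2.59 and 2.65 in PlaB libraries and 3.00 and 2.78 in control libraries. The ratio of Klf6 to Klf3 was 18.2 and 20.2 in PlaB libraries and 2.68 and 3.66 in control libraries. The size of such ratios depends on the lengths used, and Klf3 has 11243 bp of exons against 5221 bp in its longest transcript. The same lengths apply to every library, so the comparison between libraries does not depend on them. With 2 libraries against 2, an exact two-sided permutation test cannot go below p = 0.333, the value it gave for both ratios (adjusted p = 0.364 over 12 comparisons of ratios).

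Klf10, known as TGF-beta inducible early gene, had the largest rise of the 8. It stood at 212 and 230 CPM in PlaB cultures, against 95 and 81.2 CPM in control cultures. Both PlaB libraries exceeded both controls, by 1.32 ± 0.15 on the log2 scale (adjusted p = 2.91e-09). Klf9, which thyroid hormone and glucocorticoids induce in other tissues, stood at 50.4 and 61.1 CPM in PlaB cultures, against 59.2 and 62.7 CPM in control cultures. These ranges overlapped, and the difference of -0.13 ± 0.19 did not pass (adjusted p = 0.593). Klf13, a regulator of chemokine expression in T cells, stood at 9.91 and 14.6 CPM in PlaB cultures, against 16.8 and 15.3 CPM in control cultures. Its difference of -0.39 ± 0.34 did not pass (adjusted p = 0.344), but it did with the GC trend removed, at -1.33 ± 0.34 (adjusted p = 0.000941). The calls of Klf3, Klf5, Klf6 and Klf10 held in that setting, at -1.41, -1.72, 1.39 and 1.39 on the log2 scale. Feeder markers moved in the same comparison: 15 of the 21 tested were higher in PlaB cultures and 0 lower, with a median log2 fold change of 0.91. The mitochondrial share of counts was 9.14% and 9.38% in PlaB libraries, against 5.74% and 6.18% in control libraries. Trophectoderm markers had 3 of 10 tested higher and 2 lower, primitive endoderm markers 3 of 7 higher and 0 lower, and embryonic stem cell markers 2 of 10 higher and 4 lower. Over all genes, 25.9% were called higher and 25.8% lower. The part of these markers and of the mitochondrial share in the KLF changes was not tested, and fewer cells of a type and less RNA per cell cannot be told apart in such bulk libraries.

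**Figure D1:**
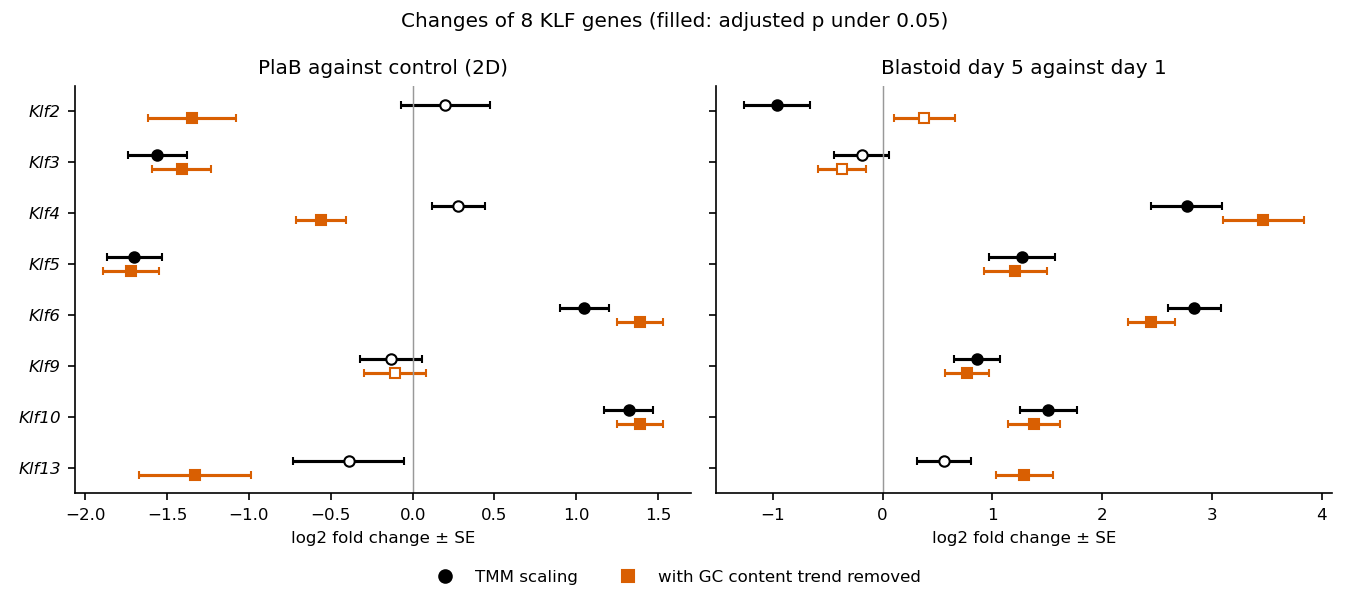
Log2 fold changes with standard errors of the 8 KLF genes for PlaB against control in 2D (left) and for blastoid day 5 against day 1 (right), with TMM scaling (black circles) and with each library's GC content trend removed (orange squares); filled symbols passed the threshold of 0.05. Klf3, Klf5, Klf6 and Klf10 sit at like values in both settings on the left, while Klf2 and Klf4 cross 0 there and Klf2 crosses 0 on the right.

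Lists of genes around the KLFs are described by their counts after PlaB, where 25.9% of all genes were called higher and 25.8% lower. The counts of the LIF and STAT3 list and of the TGF-beta list were near these shares. Of the other KLF and SP factors, 8 of 18 were tested, of which 1 was higher and 3 lower, with a median log2 fold change of -0.48 against 0.00142 over all genes. Klf8, a CtBP-binding relative of Klf3, fell by 2.91 on the log2 scale, to 4.82 ± 0.0747 CPM in PlaB against 36.4 ± 7.94 CPM in control cultures (SD, n = 2 each, scaled within the 2D fit; adjusted p = 3.25e-09). Klf12, of the same subgroup, fell by 1.93 (adjusted p = 0.00142). Klf7 was the list's only member called higher (0.90 ± 0.25, adjusted p = 0.00301), and Sp3 was the remaining member called lower (-0.49 ± 0.15, adjusted p = 0.00606). Immediate early genes other than KLFs had 10 of 16 tested members higher and 0 lower, with a median of 1.44, and were led by Cyr61 (2.62 ± 0.14, adjusted p = 6.11e-17) and Btg2 (2.23 ± 0.17, adjusted p = 4.64e-13). In the LIF and STAT3 list 3 of 12 members were higher and 3 lower, with a median of 0.11. Its cytokine Lif was higher by 2.99 ± 0.33 (adjusted p = 1.32e-09) and the receptor subunit Lifr lower by -1.93 ± 0.24 (adjusted p = 3.29e-08). Naive pluripotency factors other than KLFs had 3 of 18 members higher and 6 lower (median -0.09), with Tcl1 higher by 1.87 ± 0.21 (adjusted p = 2.99e-09) and the nuclear receptor gene Nr5a2 lower by -2.87 ± 0.43 (adjusted p = 7.81e-07). ERK output genes had 6 of 13 higher and 3 lower (median 0.84), led by Phlda1 (2.45 ± 0.20, adjusted p = 2.4e-12) and Ier3 (2.15 ± 0.20, adjusted p = 4.04e-11). TGF-beta response genes had 4 of 15 higher and 4 lower (median 0), with Ctgf higher by 1.20 ± 0.13 (adjusted p = 5.28e-09) and Pmepa1 lower by -1.37 ± 0.23 (adjusted p = 4.71e-06). Among KLF co-regulators 2 of 13 were higher and 4 lower (median -0.09), with the Sin3 subunit Sin3b higher by 1.81 ± 0.16 (adjusted p = 6.07e-12) and the co-repressor Ctbp2 lower by -1.31 ± 0.17 (adjusted p = 4.13e-08).

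The blastoid series asked how expression moved from the first to the fifth day of culture. On day 5, Klf4, Klf5, Klf6, Klf9 and Klf10 were higher than on day 1 and Klf2 was lower, while Klf3 and Klf13 did not pass. Of 15121 genes tested in the blastoid fit, 25.5% were called higher and 25.5% lower, 51.0% in all, against 5 and 1 of the 8 members. The median log2 fold change was 1.06 over the members and -0.0153 over all genes. Over any of the days, all 8 members passed, against 68.0% of all genes. Klf3 passed this test barely (adjusted p = 0.0481) and lost the call in most other settings, at the highest adjusted p of 0.102 without day 3 replicate 3.

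**Figure D2:**
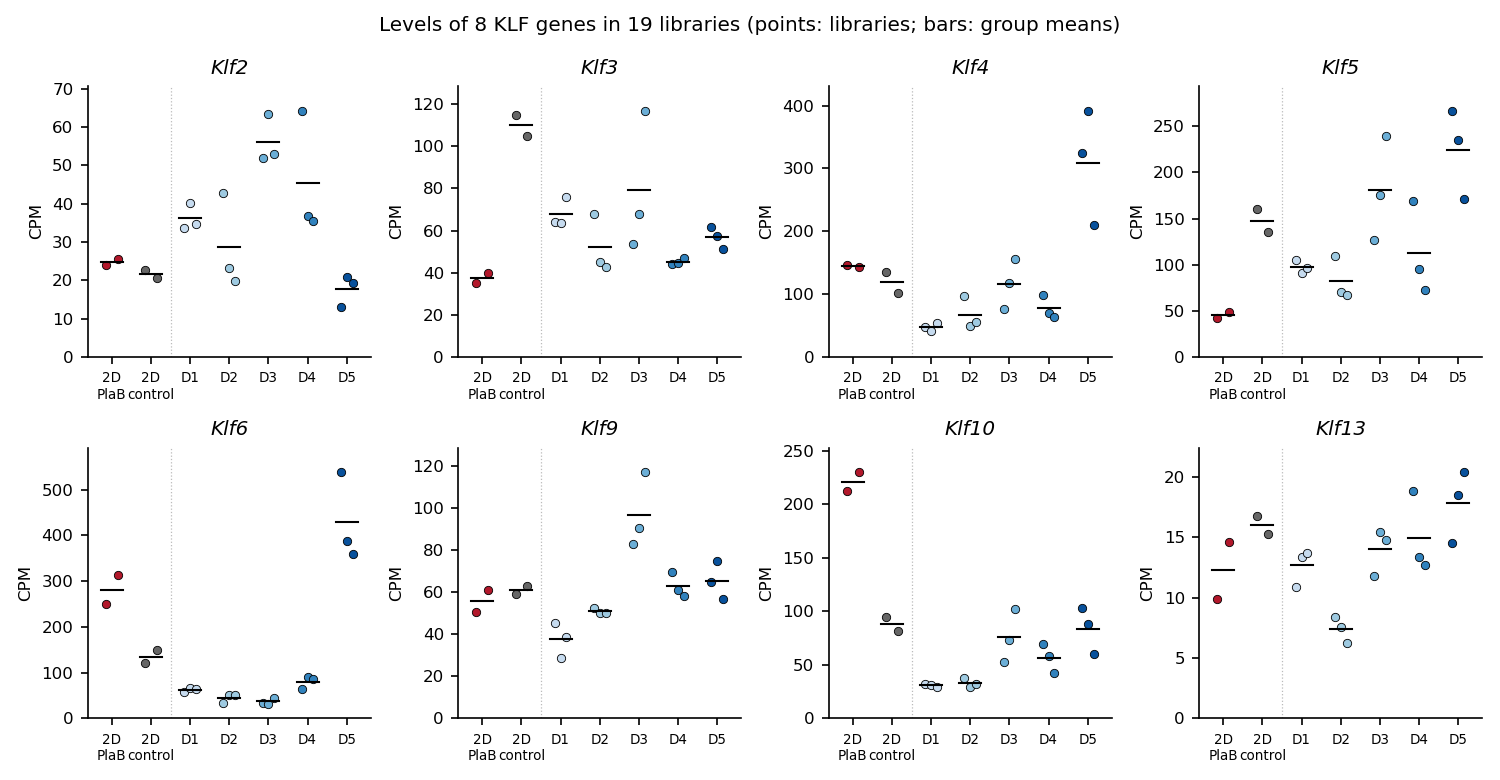
Level of each KLF gene in CPM, scaled over all 19 libraries, in the 2 groups of 2D culture (2 libraries each) and on blastoid days 1 to 5 (3 libraries each); points are libraries and bars are group means. Klf4 and Klf6 are highest on day 5, at 210 to 392 CPM and 359 to 538 CPM, and Klf10 is highest in PlaB cultures, at 212 and 230 CPM.

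Klf6 had the widest range of the 8, with a ratio of 11.7 between the means of its highest group, day 5, and its lowest, day 3. It stood at 56.8, 66.1 and 64.5 CPM on day 1, 33.9, 50.9 and 50.8 CPM on day 2, and 32.9, 32.2 and 45.4 CPM on day 3. It then stood at 63.9, 89.3 and 85.4 CPM on day 4 and 538, 388 and 359 CPM on day 5. Every day 5 library lay above every library of the other 6 groups. Against day 1, day 5 was higher by 2.84 ± 0.24 on the log2 scale (adjusted p = 3.69e-08). The step of day 5 against day 4 was 2.46 ± 0.24 (adjusted p = 2.66e-06), the fifth smallest p-value of the 15121 genes.

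Klf4 also rose on day 5, but it did not share the day 4 rise of Klf6. On day 4 against day 3, Klf4 was at -0.60 ± 0.30 (adjusted p = 0.135). It stood at 47.9, 41.0 and 53.1 CPM on day 1, 96.9, 49.4 and 55.7 CPM on day 2, and 75.4, 117 and 155 CPM on day 3. It then stood at 98.1, 69.7 and 63.8 CPM on day 4 and 324, 392 and 210 CPM on day 5. The day 5 libraries spread widely but all lay above those of every other group. The log2 fold change was 2.77 ± 0.32 on day 5 against day 1 (adjusted p = 8.82e-07) and 2.04 ± 0.31 on day 5 against day 4 (adjusted p = 9.27e-05). With the GC trend removed, Klf4 was higher on day 5 than on day 1 by 3.47 ± 0.37 (adjusted p = 4.59e-07).

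Klf2 went the other way at the end. It stood at 33.7, 40.3 and 34.6 CPM on day 1, 42.8, 23.1 and 19.8 CPM on day 2, and 51.8, 63.5 and 53.1 CPM on day 3. It then stood at 64.3, 36.8 and 35.4 CPM on day 4 and 13, 20.8 and 19.3 CPM on day 5. No day 5 library reached the day 1 or the day 4 range. Klf2 was lower on day 5 than on day 1 by -0.96 ± 0.30 (adjusted p = 0.0102) and lower than on day 4 by -1.33 ± 0.30 (adjusted p = 0.00236). Both calls ended when the GC trend was removed, at 0.38 ± 0.28 (adjusted p = 0.269) and -0.59 ± 0.28 (adjusted p = 0.122), and the call against day 1 also ended without day 5 replicate 1 (-0.78 ± 0.33, adjusted p = 0.0625). The same difference between GC-rich and GC-poor genes was -0.28 on day 5, 1.07 on day 1 and 0.55 on day 4.

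Within each library, and without removing the GC trend, the ratio of Klf4 to Klf2 in counts per kb was 15, 11.4 and 6.60 on day 5. On day 1 it was 0.860, 0.616 and 0.930. On day 4 it was 0.924, 1.15 and 1.09, and over days 2 and 3 it ran from 0.881 to 1.77. With 3 libraries against 3, the exact two-sided permutation test gave p = 0.1, the smallest it allows, for day 5 against either day. The ratio of Klf6 to Klf3 was 22.3, 17.3 and 18.0 on day 5, against 2.27, 2.66 and 2.18 on day 1, again with p = 0.1 in the exact permutation test. Adjusted over the 12 comparisons of ratios made, these p-values were 0.171, and the 3 libraries of day 5 lay above all 3 of the other day in each. This did not hold for every ratio. That of Klf5 to Klf3 was 7.21 to 9.34 on day 5 and overlapped day 4, at 3.32 to 8.23 (permutation p = 0.2, adjusted p = 0.3). In 2D culture, that of Klf4 to Klf2 was 3.39 to 3.67 in PlaB and 3.00 to 3.62 in control libraries (permutation p = 0.667).

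**Figure D3:**
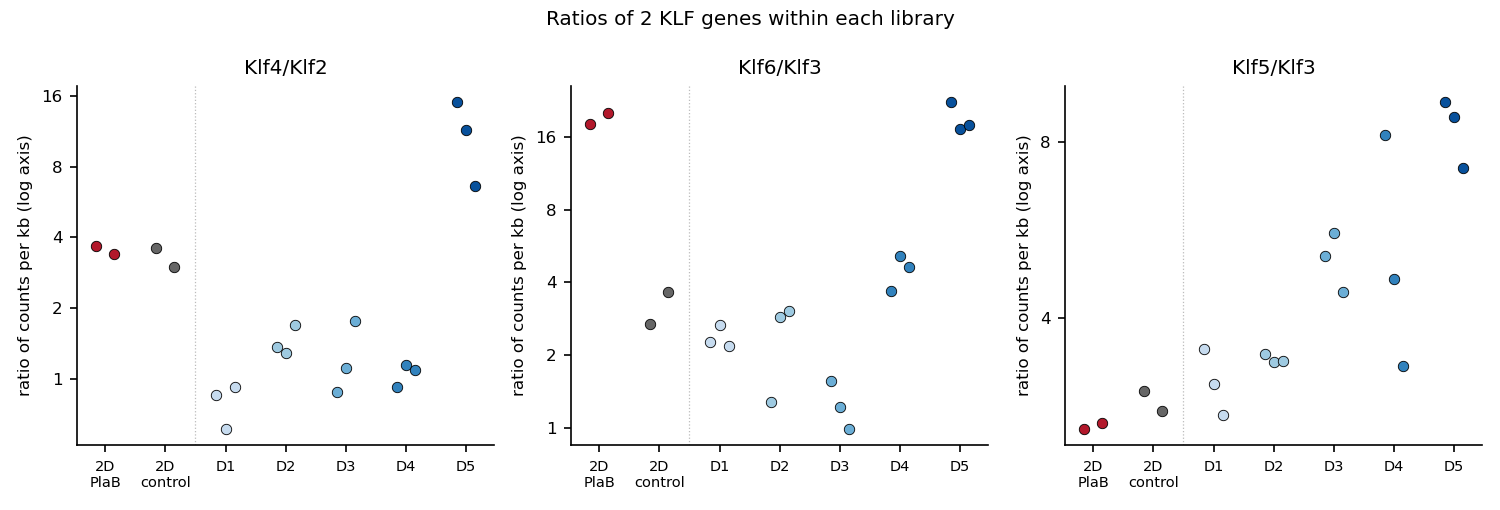
Ratios of Klf4 to Klf2, Klf6 to Klf3 and Klf5 to Klf3 in each library, in counts per kb of exon on log axes, in the 2D groups and on blastoid days 1 to 5. The Klf4 to Klf2 ratio is 6.60 to 15 on day 5 and 0.616 to 0.930 on day 1, and the Klf6 to Klf3 ratio is 17.3 to 22.3 on day 5 and 18.2 and 20.2 in PlaB cultures. The size of each ratio depends on the exon lengths used.

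Klf5 was higher on day 5 and on day 3. It stood at 105, 90.7 and 95.8 CPM on day 1, 109, 70.2 and 66.8 CPM on day 2, and 127, 175 and 240 CPM on day 3. It then stood at 169, 95.7 and 72.2 CPM on day 4 and 267, 235 and 171 CPM on day 5. Replicate 1 of day 4 stood well above the other day 4 libraries, near the lowest of day 5. Day 5 against day 1 gave 1.27 ± 0.30 on the log2 scale (adjusted p = 0.00143). Day 5 against day 4 gave 1.03 ± 0.30 (adjusted p = 0.0129). Klf5 no longer passed at this step when day 4 replicate 2 was left out (0.90, adjusted p = 0.0657), nor when day 4 replicate 3 (0.77, adjusted p = 0.0915) or day 5 replicate 1 (0.89, adjusted p = 0.0627) was.

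Klf10, the TGF-beta inducible member, stood at 31.8, 31.2 and 29.2 CPM on day 1, 37.2, 29.4 and 32.1 CPM on day 2, and 52.5, 72.9 and 102 CPM on day 3. It then stood at 69.5, 57.8 and 42.6 CPM on day 4 and 103, 88.1 and 60.1 CPM on day 5. Days 1 and 2 were low and tight, and the later days were higher with a wide spread. Day 5 against day 1 gave 1.51 ± 0.26 (adjusted p = 8.52e-05). Klf9 ranged from 28.6 to 45.3 CPM on day 1, 50 to 52.6 on day 2, 82.9 to 117 on day 3, 58.3 to 69.4 on day 4 and 56.9 to 74.8 on day 5, so that day 3 was its peak. Its day 5 against day 1 difference of 0.86 ± 0.21 (adjusted p = 0.00215) ended with library totals in place of TMM (0.52, adjusted p = 0.0569) and with no filter on low counts (0.65, adjusted p = 0.0588).

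Klf13, the lowest of the 8 per length in every group, stood at 10.9 to 13.7 CPM on day 1, 6.20 to 8.43 on day 2, 11.8 to 15.4 on day 3, 12.7 to 18.8 on day 4 and 14.5 to 20.4 on day 5. Its day 5 against day 1 difference of 0.56 ± 0.25 did not pass (adjusted p = 0.0649). It passed with the GC trend removed (1.29 ± 0.26, adjusted p = 0.000358) and without day 5 replicate 1 (0.70, adjusted p = 0.0427). Klf3 ranged from 63.5 to 75.8 CPM on day 1, 42.7 to 68.0 on day 2, 53.8 to 117 on day 3, 44.3 to 47.1 on day 4 and 51.2 to 61.7 on day 5. Its day 5 against day 1 difference was -0.19 ± 0.25 (adjusted p = 0.554), with the ranges of both days close to each other.

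Between neighbouring days, the members moved at different steps. On day 2 against day 1 none passed, while 1.69% of all genes were called higher and 5.27% lower (6.96% in all). Klf9 and Klf13 had an unadjusted p under 0.05 in edgeR, and DESeq2 called Klf13 lower (-0.78, adjusted p = 0.0464). On day 3 against day 2, 5 members were higher (12.0% of all genes) and 0 lower (13.5%, and 25.6% in all). These were Klf2 (1.00 ± 0.29, adjusted p = 0.0154), Klf5 (1.16 ± 0.30, adjusted p = 0.0082), Klf9 (0.95 ± 0.21, adjusted p = 0.00355), Klf10 (1.23 ± 0.26, adjusted p = 0.00261) and Klf13 (0.94 ± 0.25, adjusted p = 0.0111). Klf4 just missed the threshold (0.81 ± 0.30, adjusted p = 0.0515). It passed with DESeq2 (0.83, adjusted p = 0.038) and with the GC trend removed (1.31 ± 0.35, adjusted p = 0.0125), and kept the call of not passing in 14 of 22 other settings. Klf6 was at -0.27 ± 0.23, and 0 members with a negative value had an unadjusted p under 0.05 in edgeR. DESeq2 called 6 members higher and 0 lower. With the GC trend removed, Klf6 was called lower at -0.64 ± 0.21 (adjusted p = 0.0321). The count of 5 remained at 5 without day 3 replicate 3, the library high in mitochondrial counts, but was 2 without day 2 replicate 3. There Klf2 (0.78, adjusted p = 0.101), Klf5 (1.02, adjusted p = 0.055) and Klf13 (0.81, adjusted p = 0.0727) did not pass. Klf2 also did not pass without day 2 replicate 2 (adjusted p = 0.0819) or day 3 replicate 2 (adjusted p = 0.0526), nor Klf13 with no filter on low counts (0.87, adjusted p = 0.0657).

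On day 4 against day 3, Klf6 was higher by 1.1 ± 0.23 (adjusted p = 0.00183), 1 member against 15.6% of all genes. Klf3 was lower by -0.83 ± 0.25 (adjusted p = 0.0202) and Klf9 by -0.64 ± 0.21 (adjusted p = 0.0279), 2 members against 12.3% (27.9% in all). Feeder markers had 0 of 20 tested members higher and 14 lower at the same step (median -1.68), and their part in it was not tested. Both lower calls ended with library totals in place of TMM (adjusted p = 0.0538 for Klf3 and 0.0829 for Klf9) and without day 3 replicate 3, at -0.42 (adjusted p = 0.158) for Klf3 and -0.46 (adjusted p = 0.103) for Klf9. They also ended without day 4 replicate 2 (adjusted p = 0.0642 and 0.0894) or day 4 replicate 3 (adjusted p = 0.0559 and 0.106), and that of Klf3 without day 4 replicate 1 (adjusted p = 0.0541). Without day 3 replicate 1, the count of lower calls was 4, with Klf4 at -0.82 (adjusted p = 0.039) and Klf5 at -0.89 (adjusted p = 0.0286). With the GC trend removed, Klf2 was called lower at -1.38 ± 0.27 (adjusted p = 0.0013), against -0.32 ± 0.28 before, and Klf4 at -1.25 ± 0.35 (adjusted p = 0.0154), against -0.60 ± 0.30, while Klf3 did not pass (-0.60, adjusted p = 0.066). On day 5 against day 4, Klf4, Klf5 and Klf6 were higher, 3 members against 14.1% of all genes, and Klf2 was lower, 1 member against 14.5% (28.6% in all).

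Trophectoderm markers were also higher on day 5, with 8 of 13 tested called higher and 2 lower against day 1 (median log2 fold change 1.73), and 4 of 13 called higher and 0 lower against day 4 (median 0.54). On day 4 against day 3, 8 of 13 were called higher and 0 lower (median 1.48), at the step where Klf6 was the only member called higher. Among embryonic stem cell markers 1 of 10 was higher on day 5 than on day 1 and 6 were lower (median -0.90), and of primitive endoderm markers 3 of 9 tested were higher and 4 lower (median -0.33). Over all genes, 25.5% were called higher and 25.5% lower on day 5 against day 1. The share called higher was 14.1% on day 5 against day 4 and 15.6% on day 4 against day 3. The part of the cell types in the KLF changes was not tested. Feeder markers had 0 of 20 tested members higher and 13 lower on day 5 against day 1, and summed to 306 to 345 CPM on day 5, against 627 to 953 CPM on day 1.

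The lists around the KLFs were counted in the same way for day 5 against day 1. There, 25.5% of all genes were called higher and 25.5% lower, with a median over all genes of -0.0153. Of the other KLF and SP factors, 12 of 18 were tested, with 4 higher and 1 lower (median 0.21). The GC-box binding activators Sp1 (1.58 ± 0.22, adjusted p = 9.98e-06) and Sp4 (2.39 ± 0.38, adjusted p = 3.89e-05) led the list, Sp3 (1.79) and Klf11 (0.90) were also higher, and Sp2 was lower (-1.64). Naive pluripotency factors other than KLFs had 0 of 18 members higher and 9 lower (median -0.84), with Nanog lower by -2.97 ± 0.24 (adjusted p = 2.31e-08) and Tdh by -3.57 ± 0.38 (adjusted p = 4.03e-07). ERK output genes had 1 of 14 higher and 10 lower (median -1.1), with the transcription factor gene Etv4 (-5.53 ± 0.51, adjusted p = 7.5e-08) and the ERK phosphatase gene Dusp6 (-1.73 ± 0.23, adjusted p = 5.22e-06) lower. Immediate early genes had 7 of 18 higher and 4 lower (median 0.14), with Atf3 higher by 4.45 ± 0.33 (adjusted p = 1.5e-08) and Ier2 lower by -1.93 ± 0.24 (adjusted p = 2.55e-06). In the LIF and STAT3 list 2 of 12 were higher, the kinase genes Jak1 (0.85 ± 0.19, adjusted p = 0.00115) and Jak2 (0.95 ± 0.23, adjusted p = 0.00216), and 2 lower (median 0.27). TGF-beta response genes had 6 of 14 higher and 4 lower (median 0.42), with Skil higher by 2.00 ± 0.21 (adjusted p = 4.02e-07) and Tgif1 lower by -1.81 ± 0.20 (adjusted p = 7.43e-07), and KLF co-regulators had 4 of 14 higher and 2 lower (median -0.12), led by Fbxw7 (1.12 ± 0.21, adjusted p = 0.00023) and Crebbp (1.16 ± 0.23, adjusted p = 0.00026).

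Compared with the PlaB cultures, day 1 blastoids had higher Klf3 (0.86 ± 0.28, adjusted p = 0.0173) and Klf5 (1.1 ± 0.33, adjusted p = 0.00961), 2 members against 21.9% of 16304 genes in the joint fit. Klf4 (-1.61 ± 0.31, adjusted p = 0.000214), Klf6 (-2.17 ± 0.24, adjusted p = 2.2e-07) and Klf10 (-2.85 ± 0.27, adjusted p = 1.37e-08) were lower, 3 members against 17.0% (38.9% in all). Klf9 just missed the threshold (-0.57 ± 0.23, adjusted p = 0.0534). It was called lower with DESeq2 (-0.62, adjusted p = 0.0301) and with only the libraries compared (-0.71, adjusted p = 0.0265), and kept the call of not passing in 19 of 27 other settings. The median over all genes was 0.138. Klf3, Klf5, Klf6 and Klf10, the members called in 2D, each differed in the opposite direction here, but both comparisons share the PlaB libraries. The calls of Klf3 and Klf5 ended without PlaB replicate 1 (0.81, adjusted p = 0.112, and 1.03, adjusted p = 0.0839), and that of Klf3 also without PlaB replicate 2 (1.00, adjusted p = 0.0591). Feeder markers had 20 of 21 tested members lower on day 1 than in PlaB cultures, and culture form and count table cannot be told apart.

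Compared with control cultures, day 5 blastoids had higher Klf4 (1.38 ± 0.32, adjusted p = 0.00165) and Klf6 (1.67 ± 0.26, adjusted p = 1.93e-05), 2 members against 18.0% of all genes. Klf3 was lower (-0.95 ± 0.26, adjusted p = 0.00617), 1 member against 15.5% (33.5% in all), and its call ended without control replicate 1 (-0.90 ± 0.33, adjusted p = 0.0563). With the GC trend removed, Klf2 was also called lower, at -0.88 ± 0.31 (adjusted p = 0.0283), against -0.29 ± 0.32 before. The median over all genes was 0.133. Klf5 averaged 224 ± 48.8 CPM on day 5 (SD, n = 3) and 147 ± 17.5 CPM in control cultures (SD, n = 2), and Klf10 averaged 83.9 ± 22.0 CPM on day 5 and 88.1 ± 9.75 CPM in control cultures. Neither passed (adjusted p = 0.135 and 0.854). Feeder markers had 21 of 21 tested members lower on day 5 than in control cultures, and PlaB treatment, culture form and count table cannot be told apart here.

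Levels of different members can be set side by side only per length, and are given here as mean CPM per kb of exon ± SD. In PlaB cultures the order was Klf6 (64.0 ± 10.4), Klf10 (52.9 ± 2.99), Klf4 (47.5 ± 0.612), Klf2 (13.5 ± 0.568), Klf9 (11.6 ± 1.57), Klf5 (8.71 ± 0.960), Klf3 (3.32 ± 0.308) and Klf13 (1.63 ± 0.438), with no overlap between the libraries of neighbours. In control cultures it was Klf4 (39.0 ± 7.58), Klf6 (30.8 ± 4.73), Klf5 (28.3 ± 3.37), Klf10 (21.1 ± 2.33), Klf9 (12.7 ± 0.510), Klf2 (11.7 ± 0.728), Klf3 (9.78 ± 0.641) and Klf13 (2.13 ± 0.135), where Klf4 overlapped Klf6 and Klf6 overlapped Klf5. On day 5, Klf4 (101 ± 30.1) and Klf6 (97.6 ± 21.8) overlapped each other and stood above Klf5 (43.1 ± 9.38), with Klf2 at 9.59 ± 2.23. On day 1, Klf2 (19.6 ± 1.94) and Klf5 (18.7 ± 1.39) led and overlapped, with Klf4 at 15.5 ± 1.99 and Klf6 at 14.2 ± 1.12.

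Of the summed level per length of the 8 genes, Klf4 held 34.5% and Klf6 33.4% on day 5, against 17.1% and 15.6% on day 1. Klf2 held 3.28% on day 5 and 21.6% on day 1. These shares were taken without removing the GC trend, and with it removed Klf2 was at 0.38 ± 0.28 on day 5 against day 1 (adjusted p = 0.269). In 2D culture, Klf10 held 26% in PlaB and 13.6% in control cultures, and Klf5 held 4.29% in PlaB and 18.2% in control cultures. Lengths matter for the order: with the longest transcript in place of all exons, Klf10 led in PlaB cultures at 72.7 CPM per kb (Klf6 at 66.5), Klf5 led in control cultures at 44.0 (Klf4 at 39.2) and Klf5 led on day 1 at 29.0 (Klf2 at 19.6). Klf4 and Klf6 led on day 5 in both settings, at 102 and 101 CPM per kb in this one.

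**Figure D4:**
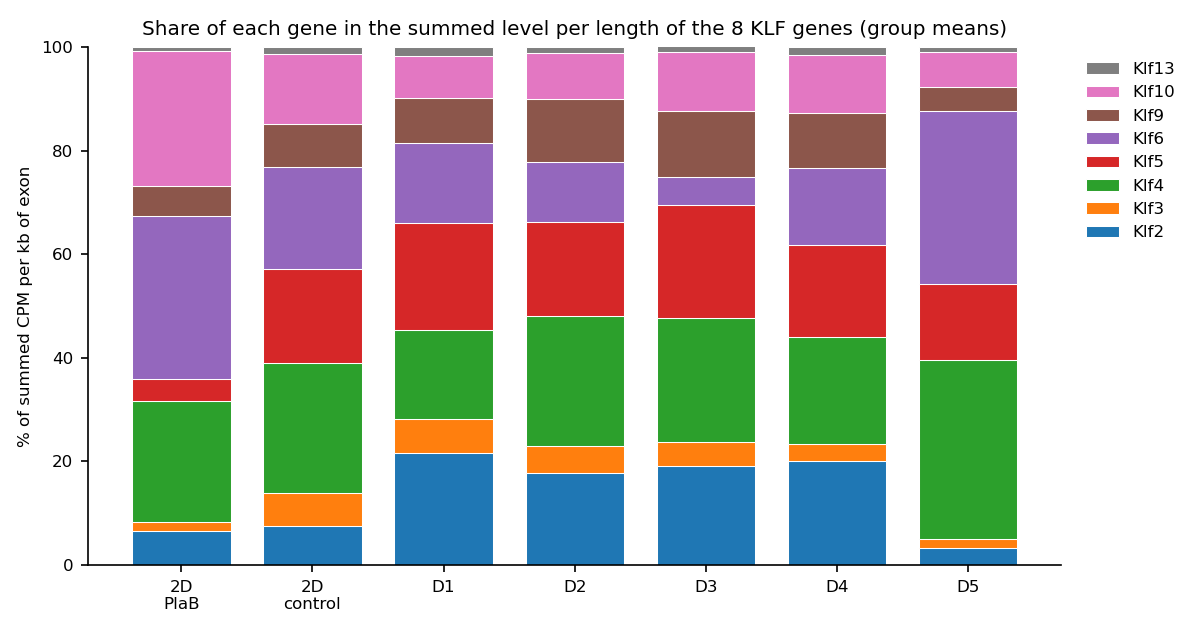
Share of each KLF gene, in percent, in the summed mean CPM per kb of exon of all 8 genes, for the 2D groups and blastoid days 1 to 5. Klf4 and Klf6 together fill most of the day 5 bar (34.5% and 33.4%), and Klf2 is a thin band there (3.28%) after 21.6% on day 1. The GC trend was not removed from these levels.

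Across the 7 groups, each member had its own order of levels. Klf6 stood highest on day 5 (429 ± 95.8 CPM), then in PlaB cultures (281 ± 45.7) and control cultures (135 ± 20.8), with no overlap between these neighbours, while days 4 and 1 overlapped and so did days 2 and 3. Klf4 had the order day 5 (309 ± 91.9 CPM), PlaB (145 ± 1.86) and control (119 ± 23.1), below which control and the remaining days overlapped as neighbours. With the GC trend removed, Klf4 was instead lower in PlaB than in control cultures (-0.56), so the order of these 2 groups is not fixed. Klf10 stood apart in PlaB cultures (221 ± 12.5 CPM), and control cultures and days 5, 3 and 4 overlapped in turn, above days 2 and 1. Klf5 was lowest in PlaB cultures (45.3 ± 4.99 CPM), and its other neighbours overlapped. Klf3 was also lowest there (37.3 ± 3.46 CPM) and highest in control cultures (110 ± 7.21 CPM), where it overlapped day 3. Klf2 was highest on day 3 (56.2 ± 6.39 CPM) and lowest on day 5 (17.7 ± 4.13 CPM), with overlap between all neighbours except PlaB and control. That order also depends on the scaling, since with the GC trend removed Klf2 was at 0.38 on day 5 against day 1 and at -1.35 in PlaB against control cultures. Klf9 stood apart on day 3 (96.9 ± 17.9 CPM), and Klf13 was lowest on day 2 (7.41 ± 1.13 CPM). The ratio of highest to lowest mean was 11.7 for Klf6, 7.2 for Klf10, 6.53 for Klf4, 4.94 for Klf5, 3.18 for Klf2, 2.95 for Klf3, 2.58 for Klf9 and 2.4 for Klf13.

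Among the members, Klf9 and Klf13 had the most similar pattern over the 7 groups, with a root mean square difference of 0.42 between their centred mean log2 levels, and Klf2 and Klf6 the least similar, at 1.69. Among 7296 other genes, those nearest by this measure were found for each member. They were Fam160a2 (0.23) and Dtwd2 (0.24) for Klf2, Tanc1 (0.17) and Sestd1 (0.20) for Klf3, Zfp654 (0.16) for Klf4, and Rbm22 (0.15) and Zmym5 (0.17) for Klf5. For Klf6 they were Pygl (0.23) and Dusp5 (0.35), for Klf9 Usp6nl (0.11) and Gprasp1 (0.12), for Klf10 Epm2aip1 (0.23) and Lin7c (0.23), and for Klf13 Rab14 (0.12). All points share the same 19 libraries and their scaling, and no test was made.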

How the data were processed

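Polyadenylated RNA was measured in 19 Smart-seq2 libraries, and the authors deposited 2 tables of raw counts by gene symbol (2D culture and blastoids). Per the submitters' processing notes, STAR 2.7.10b, HTSeq 0.13.5 and mm10 were used; neither the annotation release nor the strand setting is given in the sources used here. Of 54352 symbols, 53663 matched 1 gene of GENCODE M21, including all 8 members.

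Libraries were grouped by their labels. The 4 libraries of 2D culture, the 15 of blastoids and all 19 were fitted separately with edgeR 4.0.16 (R 4.3.3): filterByExpr (minimum count 10, minimum total 15), TMM scaling, robust quasi-likelihood F-test and Benjamini-Hochberg adjustment across all genes of a fit (threshold 0.05). The biological coefficient of variation was 0.127, 0.258 and 0.25. All 8 members passed the filter in each fit. The fit was checked on simulated counts with 200 altered genes. Replicate pairs all differed by more than counting error (chi-square per degree of freedom at least 4.24).

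The members and gene lists were chosen with earlier results of these data known. All 8 members are described, with the 2 genes of most similar pattern for each (mean of at least 10 CPM, prior count 2; for Klf4 and Klf13 1 of them is not reported here) and, from each list, the 2 called genes with the smallest adjusted p per comparison; Klf7, Klf11, Sp2, Sp3 and the genes near the detection limit were named after their values were seen. Alternatives were RLE factors, library totals, no filter, DESeq2 1.42.0, offsets that remove each library's trend over GC content, a replicate block, the libraries compared alone, and leaving out each library. Ratios of members within a library were compared by an exact permutation test of mean log2 ratios. Sequences are from RefSeq. Python 3.11.15 and matplotlib 3.10.9 drew the figures and searched motifs.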

Additional observations from a re-analysis of the deposited data

How the results depend on the processing

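Leaving out each library gave 891 values of the same direction and call, 16 newly past the threshold, 20 no longer past it and 9 of opposite sign; the other settings gave 414, 23, 11 and 24. In no setting did a value of Klf3, Klf4, Klf5, Klf6, Klf9, Klf10 or Klf13 that was called with TMM scaling alone change sign. Klf4 after PlaB was not called in that way, and was called lower with GC offsets. With GC offsets, and also with the replicate block added, 5 members were lower after PlaB, 0 lower on day 5 against day 1 and 0 lower on day 5 against day 4; GC offsets alone gave 1 lower on day 3 against day 2 and 2 lower on day 5 against control. Library totals gave 1 lower on day 2 against day 1 and 0 lower on day 4 against day 3, DESeq2 gave 1 lower on day 2 against day 1, and no filter gave 1 lower on day 4 against day 3. Leaving out libraries gave 2 to 7 members higher on day 3 against day 2, 0 to 4 lower on day 4 against day 3, 0 to 1 lower on day 5 against day 1, 0 to 1 lower on day 5 against control, and 0 to 2 higher on day 1 against PlaB.

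Signs changed as follows, with the cause not tested. With GC offsets and with the replicate block added, Klf2 was at -1.35 and -1.35 and Klf4 at -0.56 and -0.54 after PlaB. In the same pair of settings Klf2 was at 0.38 and 0.37 on day 5 against day 1, 0.78 and 0.74 on day 2 against day 1, and -0.42 and -0.36 on day 1 against PlaB. Klf13 was at -0.63 and -0.62 on day 4 against day 3, -0.41 and -0.41 on day 1 against PlaB, and -0.28 and -0.29 on day 5 against control, where Klf10 was at 0.02 with the block. The remaining changes were of values near 0 that passed in no setting. Klf10 was at -0.08 on day 2 against day 1 with library totals. Klf9 was at -0.13 with library totals and -0.09 with no filter on day 5 against day 4. On day 1 against PlaB, Klf13 was at -0.02 with RLE factors, -0.02 with DESeq2 and -0.10 with only the libraries compared, and on day 5 against control Klf9 was at -0.02 with those. Leaving out each library gave -0.12 to 0.19 for Klf13 on day 4 against day 3, -0.04 to 0.19 for Klf9 on day 5 against day 4, -0.17 to 0.38 for Klf13 on day 1 against PlaB, and -0.25 to 0.12 for Klf10 and -0.04 to 0.19 for Klf9 on day 5 against control.

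The labels give replicates only a number. Deviations from group means in same-numbered blastoid libraries correlated at -0.262 to 0.179 (median -0.036), against -0.183 to 0.232 (median 0.021) in other-numbered ones. Same-numbered 2D libraries were at -0.018, and with 2 libraries per group the other-numbered value mirrors it at 0.018. Such deviations are tied to each other within a group, so they cannot settle whether equal numbers mark pairs. The replicate block alone changed the call of Klf3 over any day (F 2.71, adjusted p = 0.0884) and no other. Per-length levels moved by more than 1 SD in 28 values and not in 28 with the longest transcript, in 11 and not in 45 with library totals, and in 2 and not in 150 when each library was left out.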

Other observations

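Several KLF and SP genes outside the 8 were near the detection limit. Sp6 had no count in any of the 19 libraries. Klf15 had no count in either 2D group, and 62, 25, 49, 114 and 28 counts summed over the 3 libraries of days 1, 2, 3, 4 and 5. Klf16 had 0 counts over the PlaB libraries and 5 over the control libraries, with 47, 13, 30, 29 and 16 on days 1 to 5. Sp8 had 8 counts over the PlaB and 2 over the control libraries, and 2, 10, 69, 26 and 8 counts on days 1 to 5. Sp1, the GC-box binding activator, averaged 52.1, 76, 217, 111 and 149 CPM on days 1 to 5, with the highest mean on day 3, as for Klf2 and Klf9. Klf8, Klf12 and Sp4 also had their highest mean on day 3, at 55, 17.2 and 25.1 CPM, while Sp3 was highest on day 5 (242 CPM).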
